A study of Mus musculus with 60 samples.

Results

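Balb/c 3T3 cells are an established line of mouse embryo fibroblasts, contact-inhibited and long used to test whether a chemical can transform cells in culture. The members described here are the 3 arrays of cells given 3-methylcholanthrene (MCA) at 2 µM for 120 h and the 3 arrays of cells given the solvent DMSO alone for 120 h, chosen by their sample titles. They are 6 of 60 arrays in all. Both groups come from the set of 30 arrays treated at concentrations taken from the literature, in which the controls had 0.75% DMSO. That set also holds MCA at 2 µM and DMSO at 24 h, and benzo(a)pyrene (BaP) at 0.5 µM, 2,4-diaminotoluene (DAT) at 50 µM and 2-acetylaminofluorene (AAF) at 25 µM. A second set used concentrations chosen as IC20 values, and of it only MCA at 0.1 µM for 120 h and its own DMSO controls are used here. All groups hold 3 arrays of the same line, used over a narrow range of passages, with no genetic change stated. The labels do not say whether the 3 arrays of a group came from separate cultures, so the p-values measure only the spread between these arrays.

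MCA is a polycyclic aromatic hydrocarbon and a classical complete carcinogen. Such compounds bind the aryl hydrocarbon (Ah) receptor, a cytosolic transcription factor that then moves to the nucleus. There it pairs with its partner Arnt and switches on cytochrome P450 genes, whose products in turn convert the hydrocarbons to reactive metabolites. Fibroblasts that grow to confluence normally leave the cell cycle and lay down matrix. A transformed 3T3 culture is recognised by foci that keep growing on the monolayer. RNA was taken from whole dishes, so fewer cells of a kind and less RNA per cell cannot be told apart in any result.

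Values are array intensities for 1 probe set a gene. Each sentence that lists 3 intensities gives replicates 1, 2 and 3 in that order as deposited. Differences are on the log2(intensity + 16) scale after quantile normalisation over the 30 arrays, with the standard error (SE) of the limma fit and n = 3 arrays a group, and a gene passed at an adjusted p of 0.05 or below. The offset of 16 compresses the change of dim genes. The 6 arrays correlated with the others of their group at 0.993 to 0.995, and their median intensities lay between 42.6 and 46.7. The control probe sets of actin had a log2 ratio of 3' to 5' signal of 0.31 ± 0.02 (SD, n = 3) in the controls and 0.30 ± 0.03 with MCA. By this ratio none of the 6 arrays stood apart in RNA quality. All 12 fibroblast markers were measured above the filter on dim genes, with summed intensities of 60175 to 65005 in the controls and 53369 to 55961 with MCA, and the part of this in the results was not tested. Of 11 macrophage and leukocyte markers on the array, 6 passed the filter (summed 916 to 1031 and 915 to 989), and Ptprc, Cd68, Itgam and Aif1 did not. Of 10 endothelial, 11 epithelial and 10 skeletal muscle markers, 1, 3 and 5 passed the filter, and Pecam1, Cdh1 and Myog did not. Of 8 adipocyte markers on the array 4 passed, and Adipoq and Fabp4 did not.

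After 120 h with MCA, 2358 of 11957 genes were higher and 2517 were lower than in DMSO, which is 19.7% and 21.1% of those tested. The changes beyond 2-fold ran mostly upward, with 271 genes higher and 40 lower, and those beyond 4-fold numbered 26 and 5. The median difference over all genes was -0.02. In 6008 genes (50.2%) the 3 MCA arrays lay wholly above or below the 3 control arrays. With median scaling in place of quantile normalisation 62.8% of the called genes were higher, against 48.4% here. In a fit of all 60 arrays together, 2885 genes passed. Among the largest rises were Cyp1a1, the protease gene Mmp3, the AP-1 gene Fosl1 and the semaphorin gene Sema5a, and among the largest falls were the smooth muscle genes Actg2, Myl9 and Acta2 and the matrix genes Col11a1 and Postn.

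**Figure D1:**
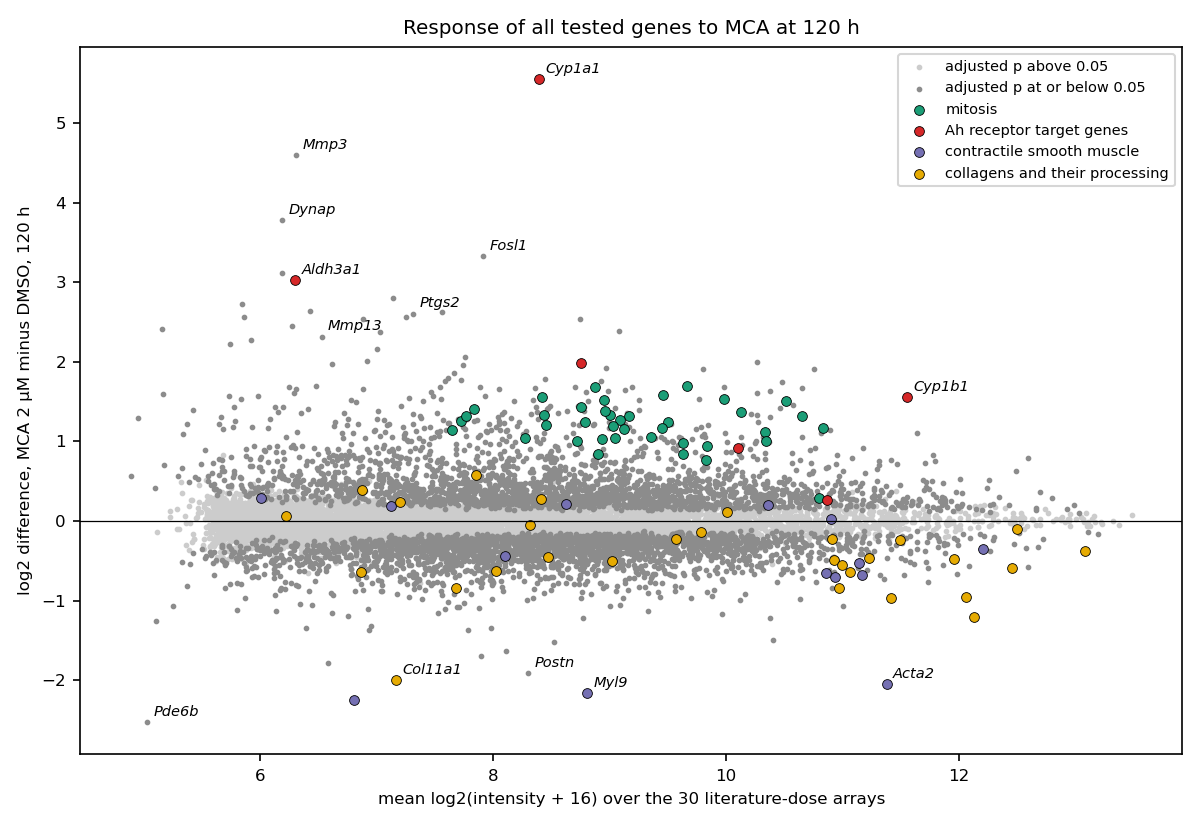
The log2 difference between MCA and DMSO at 120 h (vertical axis) is plotted against the mean log2 level over the 30 literature-dose arrays (horizontal axis) for each of the 11957 genes, with 4 gene lists in colour. Cyp1a1 lies highest at 5.56, all 39 mitosis genes lie above 0, and Actg2, Myl9 and Acta2 are the 3 contractile genes at or below -2.05.

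The Ah receptor targets rose together. Cyp1a1, which codes the P450 enzyme that oxidises polycyclic hydrocarbons, had intensities of 13.8, 15.6 and 16.1 in DMSO and 1405, 1508 and 1360 with MCA. The groups did not overlap, and the difference was 5.56 ± 0.12 (adjusted p = 5.09e-23), or 47.0-fold on this scale. Cyp1b1, a second hydrocarbon-oxidising P450 that fibroblasts express at rest, went from 1686, 1404 and 1414 to 4401, 4775 and 4584, a difference of 1.56 ± 0.06. Its controls were already bright and still did not overlap with the treated arrays. Aldh3a1, an aldehyde dehydrogenase of the same gene battery, went from 31.2, 16.7 and 13.7 to 270, 235 and 298 (3.03 ± 0.17). Nqo1, a quinone reductase, went from 129, 149 and 162 to 606, 572 and 678 (1.99 ± 0.13). Tiparp, which codes an ADP-ribosyltransferase that acts back on the receptor, went from 789, 853 and 907 to 1575, 1730 and 1635 (0.92 ± 0.05). All 6 targets tested passed upward at 120 h with a median of 1.77, and the smallest rise was that of Xdh at 0.27 ± 0.07. The receptor gene Ahr itself fell, from 661, 606 and 644 to 446, 464 and 512 (-0.43 ± 0.08). A second, dimmer probe set of Ahr above the filter differed by only -0.006, so the fall rests on the brighter one. The receptor's repressor gene Ahrr stayed below the filter on all arrays used, at 6.02 to 10.5 with MCA and 7.1 to 9.9 without.

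The promoter of Cyp1a1 is shown because it drives the gene with the largest response. The Ah receptor and Arnt bind a core of GCGTG, marked in capitals in the 250 bases before the RefSeq start at chr9:57697363-57697612 (GRCm38.p6, plus strand).
Cyp1a1: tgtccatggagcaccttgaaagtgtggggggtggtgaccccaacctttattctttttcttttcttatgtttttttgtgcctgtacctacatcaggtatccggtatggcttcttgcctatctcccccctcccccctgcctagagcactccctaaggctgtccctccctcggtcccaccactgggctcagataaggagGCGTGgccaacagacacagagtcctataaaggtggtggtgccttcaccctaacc
The match begins 54 bases before the start. Sequence farther upstream was not searched, and whether the receptor acts at this match was not tested. Cyp1b1 and Tiparp hold a GCGTG 76 and 170 bases before theirs, and Nqo1 holds none in this window. The short core is common: searched on both strands, it is found in 55.2% of the windows of 300 bases of the 9656 tested genes that have one.

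Genes of detoxification outside the Ah receptor battery split by list. Of 22 Nrf2 targets, 11 rose and 0 fell, with a median of 0.17, led by the glutathione transferase Gstm1 (1430, 1423 and 1363 in DMSO, 2348, 2488 and 2298 with MCA, difference 0.72 ± 0.05). The glutathione reductase gene Gsr rose by 0.68 ± 0.16 and the thioredoxin gene Txn1 by 0.52 ± 0.07. Their share of rises, 11 of 22, stands beside 19.7% of all genes. Of 16 other xenobiotic enzymes and transporters 5 rose and 6 fell, with a median of 0.02, against 19.7% and 21.1% of all genes. The drug efflux pump gene Abcb1b rose, from 137, 139 and 128 to 315, 313 and 337 (1.20 ± 0.10), as did the microsomal glutathione transferase gene Mgst3 (0.82 ± 0.16). The efflux pump gene Abcg2 and the aldo-keto reductase gene Akr1c13 fell by 0.42 and 0.63, and the sterol demethylase gene Cyp51 by 0.66.

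Matrix proteases gave the steepest change after Cyp1a1. Mmp3, which codes stromelysin 1, a secreted enzyme that cuts proteoglycans and activates other proteases, had intensities of 6.95, 15.1 and 15.6 in DMSO and 679, 614 and 685 with MCA. The control signal was at the bottom of the range, so the difference of 4.60 ± 0.33 (adjusted p = 1.29e-11) understates the change. Mmp13, the rodent interstitial collagenase, went from 152, 151 and 156 to 831, 754 and 880 (2.32 ± 0.17). Plaur, the receptor that holds urokinase at the cell surface, rose more modestly, from 141, 156 and 144 to 239, 215 and 227 (0.60 ± 0.10), with no overlap. Adam8, a membrane metalloprotease of the 15 largest rises, went from 55.2, 56.8 and 61.6 to 494, 436 and 511 (2.80 ± 0.21). Timp1, which codes an inhibitor of these enzymes, also rose, by 0.66 ± 0.09. The aggrecanase gene Adamts1 fell by 0.76 on the log2 scale and the stromelysin 3 gene Mmp11 fell by 0.62. Over the whole protease and inhibitor list 6 of 19 rose, 5 fell and the median was 0.02, and the members named above do not stand for the list. Of all genes 19.7% rose and 21.1% fell, and the falls of this list were near that share.

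AP-1, a dimer of Fos and Jun family proteins, is the textbook regulator of Mmp3, Mmp13 and Plaur, and binds TGANTCA. Fosl1, the Fos family member also called Fra-1, went from 36.7, 58.5 and 62 to 639, 632 and 636, a difference of 3.33 ± 0.24 (adjusted p = 1.51e-11). Jun went from 331, 419 and 414 to 1376, 1191 and 1333 (1.68 ± 0.13). Neither gene's groups overlapped, and the 3 treated arrays of Fosl1 were nearly alike. The promoters of the 3 protease genes are printed because each holds the AP-1 letters, in capitals, close to its start, at chr9:7445572-7445821, chr9:7272264-7272513 and chr7:24462233-24462482 (GRCm38.p6, all on the plus strand).
Mmp3: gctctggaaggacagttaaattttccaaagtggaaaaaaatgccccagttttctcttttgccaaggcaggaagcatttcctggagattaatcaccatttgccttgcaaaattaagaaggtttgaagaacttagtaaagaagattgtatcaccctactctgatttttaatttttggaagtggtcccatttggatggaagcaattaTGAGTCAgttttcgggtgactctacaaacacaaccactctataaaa
Mmp13: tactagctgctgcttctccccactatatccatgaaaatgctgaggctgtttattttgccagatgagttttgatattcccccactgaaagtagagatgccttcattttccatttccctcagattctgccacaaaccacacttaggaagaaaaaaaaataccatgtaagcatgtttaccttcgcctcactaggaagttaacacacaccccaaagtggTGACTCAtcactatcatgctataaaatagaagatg
Plaur: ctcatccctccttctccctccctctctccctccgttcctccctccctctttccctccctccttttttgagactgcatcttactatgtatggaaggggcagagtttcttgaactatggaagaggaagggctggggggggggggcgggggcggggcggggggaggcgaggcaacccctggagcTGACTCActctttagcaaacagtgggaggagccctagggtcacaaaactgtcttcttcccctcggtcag
The matches begin 46, 35 and 69 bases before the start. They are the only 3 among the 13 genes of the protease list that have a window, and 6.2% of the windows of all tested genes hold TGANTCA on either strand. Among the genes that rose at least 2-fold it was found in 16 of the 217 with a window (7.37%), and among those that fell as much in 1 of 24 (4.17%). Of 13 contractile smooth muscle genes with a window, a list that mostly fell, 2 held it (15.4%). These sequences were chosen after the values were seen.

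Genes for growth factor ligands and for feedback on the ERK kinase cascade rose in part. Of 22 genes tested 13 rose and 3 fell, with a median of 0.39. Ereg, which codes the EGF receptor ligand epiregulin, went from 30.1, 43.9 and 46 to 286, 239 and 261 (2.38 ± 0.17). The ERK phosphatase genes Dusp6 and Dusp4 rose by 1.70 ± 0.14 and 1.52 ± 0.13, the ETS factor genes Etv5 and Etv4 by 1.37 ± 0.14 and 1.25 ± 0.14, and the feedback inhibitor gene Spry2 by 1.08 ± 0.19. Dusp6 was at 43, 60 and 60.3 in DMSO and 186, 198 and 219 with MCA, with no overlap. Early response genes did not move as a block: Ier3, Egr2 and Myc rose by 0.79 ± 0.07, 0.77 ± 0.11 and 0.76 ± 0.13, whereas Nr4a1, an orphan nuclear receptor gene, went from 1366, 976 and 1023 down to 333, 402 and 412 (-1.52 ± 0.13). In that list of 20 genes, 8 rose and 6 fell. Both lists stand beside 19.7% of all genes higher and 21.1% lower.

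**Figure D2:**
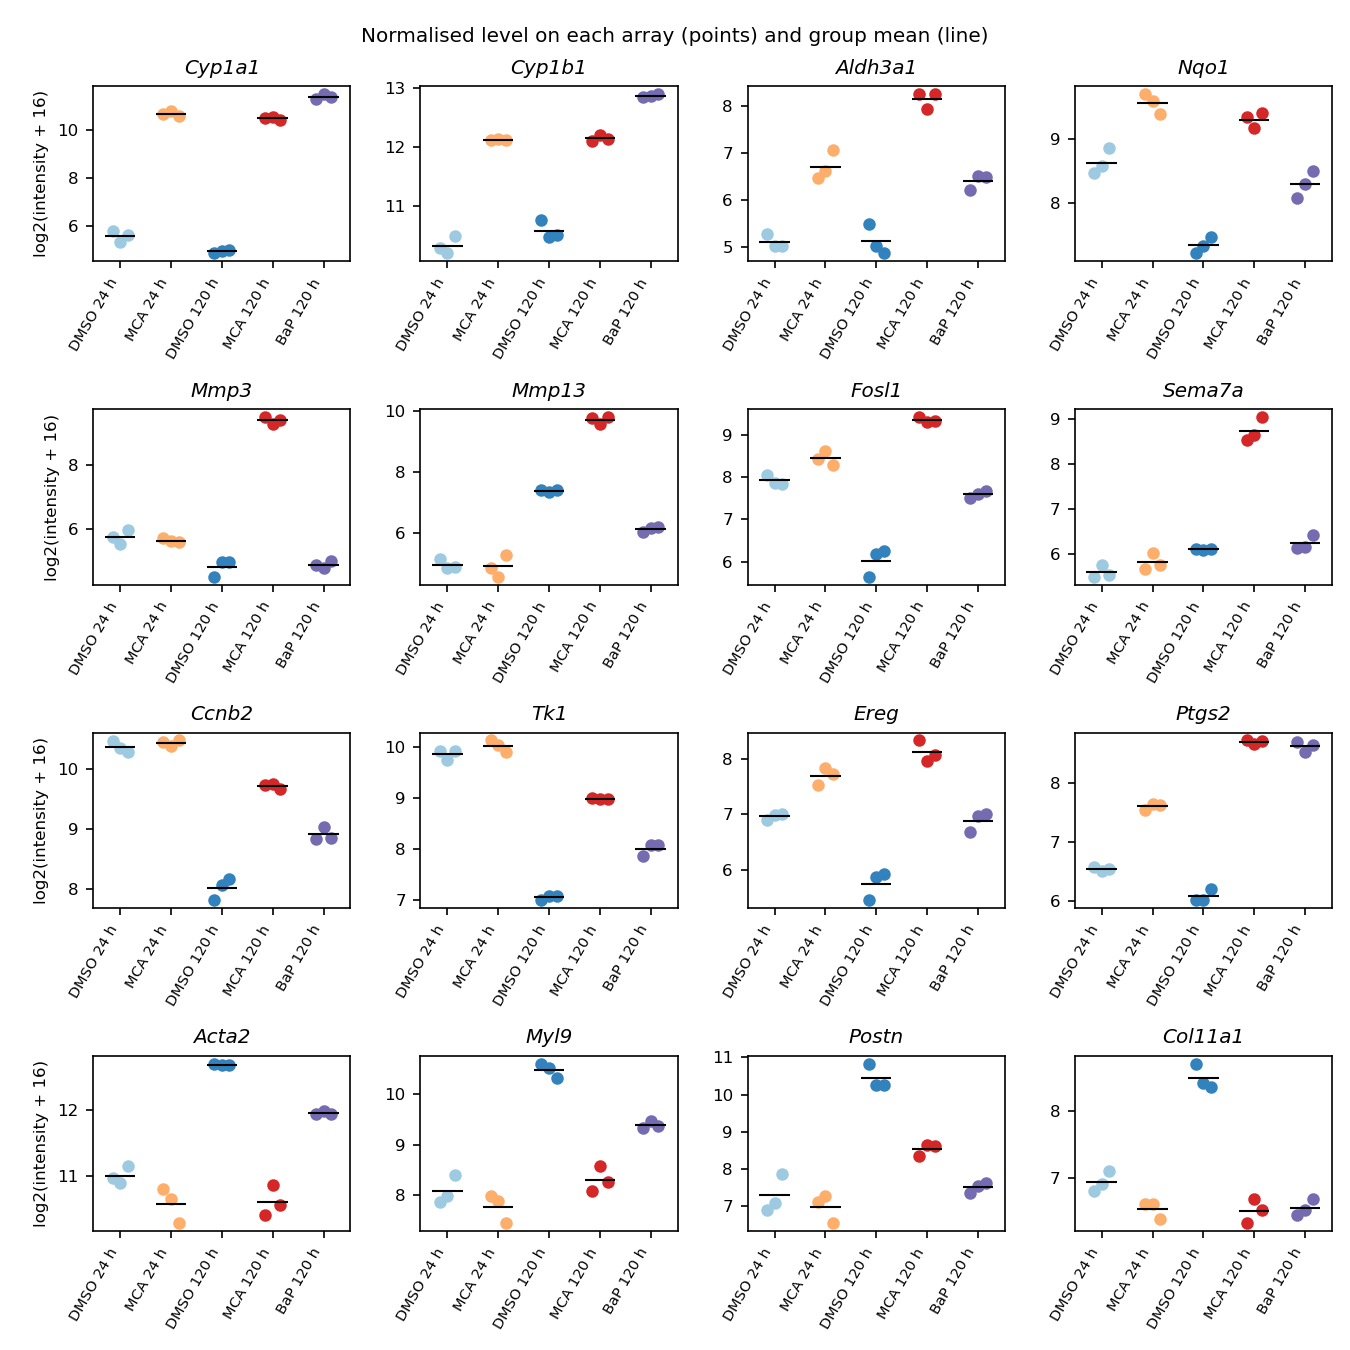
Each panel gives the log2(intensity + 16) level of a gene on every array (points) and the mean (line) for DMSO and MCA at 24 h and 120 h and for BaP at 120 h, with each panel on its own vertical scale. Mmp3, Mmp13, Fosl1 and Sema7a stand highest in the 3 MCA arrays at 120 h, while Ccnb2 and Tk1 with MCA at 120 h lie between the controls of 24 h and those of 120 h.

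The cell division genes rose as a group. All 39 mitosis genes tested were higher with MCA, with a median of 1.25 and a range from 0.29 to 1.70, against 19.7% of all genes. Ccnb2, which codes a mitotic cyclin, went from 203, 260 and 271 to 814, 858 and 808 (1.70 ± 0.10, adjusted p = 2.89e-13). Aurkb, a kinase of chromosome segregation, went from 80.3, 106 and 118 to 311, 308 and 328 (1.56 ± 0.10), and the hyaluronan receptor and spindle gene Hmmr rose by 1.68 ± 0.11. Birc5, Ckap2 and Pbk rose by 1.54 ± 0.09, 1.58 ± 0.09 and 1.52 ± 0.08. The proliferation marker Mki67 went from 361, 367 and 336 to 745, 798 and 747 (1.05 ± 0.11). Top2a, the DNA topoisomerase of dividing cells, went from 579, 658 and 650 to 1491, 1471 and 1420 (1.17 ± 0.06).

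DNA replication and nucleotide supply moved alike, with 34 of 36 genes higher, 0 lower and a median of 0.93. Over all genes 19.7% were higher and 21.1% lower. Tk1, the thymidine kinase of S phase, went from 112, 125 and 122 to 468, 502 and 500 (1.93 ± 0.12). Rrm2, the small subunit of ribonucleotide reductase, went from 240, 241 and 274 to 1019, 902 and 1071 (1.91 ± 0.15). The genes Cdc45, Cdt1, Cdc6 and Mcm5, whose products license or fire replication origins, rose by 1.76 ± 0.11, 1.75 ± 0.13, 1.69 ± 0.15 and 1.63 ± 0.14. Of 25 cell cycle regulators 14 rose and 1 fell (3 fell with the replicate block), and the rises included E2f8 (1.77 ± 0.13), Ccne2 (1.55 ± 0.14) and Ccnd1, the cyclin that answers growth factors (1082, 1099 and 1168 to 2155, 1950 and 2166, difference 0.86 ± 0.08). DNA repair and checkpoint genes gave 18 rises and 1 fall in 28 (2 falls with the block), led by Exo1 (1.28 ± 0.10), Rad54l (1.16 ± 0.09) and Brca1 (1.07 ± 0.07).

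Many promoters of mitotic genes carry a cell cycle homology region, TTTGAA, which the repressive DREAM complex uses in resting cells. It was found on either strand in the windows of 22 of the 30 mitosis genes that have one (73.3%), in 74 of the 217 genes that rose at least 2-fold (34.1%) and in 14.1% of the windows of all tested genes. Those of Top2a and Ube2c are printed as examples chosen after the values were seen, with the match in capitals, at chr11:99024190-99024439 (minus strand) and chr2:164769679-164769928 (plus strand, GRCm38.p6).
Top2a: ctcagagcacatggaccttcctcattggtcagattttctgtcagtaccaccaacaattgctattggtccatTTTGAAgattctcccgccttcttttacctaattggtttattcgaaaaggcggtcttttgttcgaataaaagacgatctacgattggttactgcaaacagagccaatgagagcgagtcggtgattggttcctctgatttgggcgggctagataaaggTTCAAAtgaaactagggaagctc
Ube2c: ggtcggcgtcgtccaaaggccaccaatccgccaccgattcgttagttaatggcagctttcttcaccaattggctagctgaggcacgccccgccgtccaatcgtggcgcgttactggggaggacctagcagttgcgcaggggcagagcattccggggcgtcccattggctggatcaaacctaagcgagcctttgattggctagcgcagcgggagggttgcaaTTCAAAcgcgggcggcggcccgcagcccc
Top2a holds 2 matches, 179 and 23 bases before its start, and Ube2c holds 1 at 29 bases, read on the other strand. Ube2c, a ubiquitin-conjugating enzyme of anaphase, rose by 1.51.

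The levels at 24 h place this rise. The median of the 39 genes, set against its mean in DMSO at 24 h, was -2.19 ± 0.12 (SD, n = 3) in DMSO at 120 h and -0.94 ± 0.04 with MCA. The replication list stood at -1.88 ± 0.06 and -0.83 ± 0.06. Ccnb2 was at 1422, 1272 and 1279 in DMSO at 24 h, above all 6 arrays of 120 h. At 120 h every MCA array lay above every control of its time and below every control of 24 h on both lists, and the controls of the 2 times were not tested against each other. On the mitosis list DAT at -1.27 ± 0.05 and BaP at -1.34 ± 0.07 stood between DMSO and MCA of 120 h, and the AAF arrays, at -2.06 ± 0.20, overlapped the DMSO arrays.

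**Figure D3:**
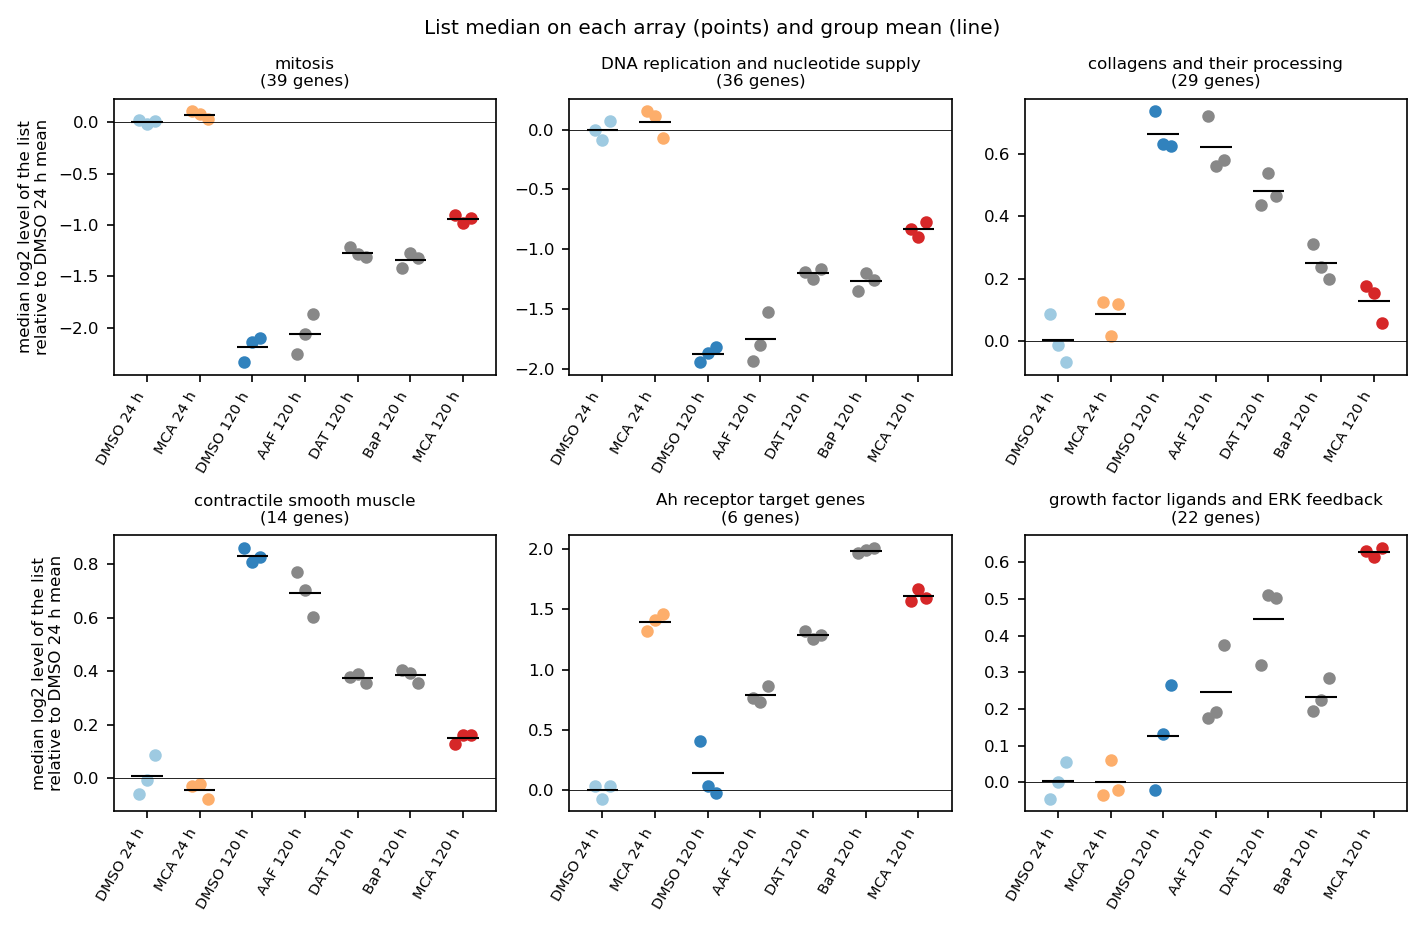
Each point is the median log2 level of a gene list on 1 array relative to the mean of DMSO at 24 h, and lines are group means for DMSO and MCA at both times and AAF, DAT and BaP at 120 h. The mitosis list is at -0.94 with MCA and -2.19 in DMSO at 120 h, and the collagen and contractile lists run the opposite way, at 0.13 against 0.66 and 0.15 against 0.83.

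Contractile genes were among the deepest falls. Acta2, smooth muscle alpha actin and the usual marker of a myofibroblast, was at 6469, 6601 and 6523 in DMSO and 1337, 1879 and 1524 with MCA. The difference was -2.05 ± 0.10 (adjusted p = 1.29e-14), and the treated arrays were also below the 1906 to 2341 of DMSO at 24 h. Myl9, a regulatory myosin light chain, went from 1464, 1437 and 1221 to 239, 372 and 297 (-2.16 ± 0.13). Actg2, smooth muscle gamma actin, went from 288, 345 and 296 to 62, 46.9 and 48.3 (-2.25 ± 0.16). Related actins can share probes, so the split between Acta2 and Actg2 is uncertain. Flna, Cnn2 and Tpm1, which cross-link or stabilise actin filaments, fell by 0.71, 0.68 and 0.65 on the log2 scale. Of 14 genes tested 9 fell and 1 rose (3 with the replicate block), with a median of -0.49, against 21.1% of all genes lower.

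Serum response factor binds the CArG box and drives contractile genes. A CArG box was found in 4 of the 13 contractile genes with a window (30.8%), namely Myl9, Cnn2, Vcl and Srf, all of which fell. It was in 1.63% of the windows of all tested genes. Among genes with a window it was in 1 of the 24 that fell at least 2-fold (4.17%) and 3 of the 217 that rose as much (1.38%). Cyp1a1, the gene with the largest rise, also holds a CArG box, 32 bases before its start. The sequences of Myl9 and Cnn2, chosen after the values were seen, are at chr2:156775214-156775463 and chr10:79988350-79988599 (GRCm38.p6, plus strand), with the box in capitals 161 and 56 bases before the start.
Myl9: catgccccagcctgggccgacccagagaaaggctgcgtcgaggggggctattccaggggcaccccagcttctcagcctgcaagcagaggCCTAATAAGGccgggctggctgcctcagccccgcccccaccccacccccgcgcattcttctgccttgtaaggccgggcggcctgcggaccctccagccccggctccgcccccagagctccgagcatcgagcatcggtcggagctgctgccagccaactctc
Cnn2: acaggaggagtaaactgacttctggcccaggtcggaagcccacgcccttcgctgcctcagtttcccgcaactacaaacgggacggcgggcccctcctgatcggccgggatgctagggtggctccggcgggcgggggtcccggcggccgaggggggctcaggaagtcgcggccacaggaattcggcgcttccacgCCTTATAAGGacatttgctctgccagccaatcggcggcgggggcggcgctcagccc
Acta2 holds no match in its window to the strict form of the box searched here, CCWWWWWWGG with W for A or T. Forms of the box with other bases were not searched.

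Matrix genes fell broadly. Of 29 genes for collagens and the enzymes that process them 20 fell and 4 rose, with a median of -0.46. Over all genes tested 21.1% were lower and 19.7% higher. Col11a1, a fibrillar collagen chain, went from 385, 335 and 314 to 60.2, 86.9 and 75.2 (-2.00 ± 0.11). Col1a1, the main chain of type I collagen, went from 8013, 6669 and 5817 to 3651, 3725 and 3019 (-0.96 ± 0.11), beside 3240 to 3610 in the controls at 24 h. Col5a2 and Lox, which codes the enzyme that cross-links collagen, fell by 1.21 and 0.97. Among 35 matrix glycoproteins and proteoglycans 19 fell and 6 rose, the rises being near the 19.7% of all genes. Postn, which codes periostin, a matricellular protein of activated fibroblasts, went from 1756, 1221 and 1186 to 290, 391 and 384 (-1.92 ± 0.18). Fibromodulin (Fmod), a collagen-binding proteoglycan, went from 1104, 619 and 532 to 176, 278 and 221 (-1.63 ± 0.20). Control replicate 1 was highest for Postn and Fmod, and both differences still passed without it, at -1.73 and -1.30.

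Some matrix genes went the other way. The hyaluronan receptor gene Cd44 went from 1422, 1485 and 1331 to 3445, 3119 and 3068 (1.14 ± 0.08), and Ltbp1, which tethers latent TGF-beta to the matrix, rose by 1.27 ± 0.10. The TGF-beta and BMP list gave 12 falls and 5 rises in 21 genes, led by the secreted follistatin-like gene Fstl1 (2322, 2151 and 1876 to 686, 812 and 752, difference -1.49 ± 0.06). Tgfb3 fell by 0.83 on the log2 scale. None of 16 Wnt and Notch genes rose and 6 fell, with the Notch ligand gene Jag1 at -0.76 ± 0.11 and Wnt5a at -0.67 ± 0.09. Of 21 quiescence and growth arrest genes 11 fell and 3 rose, and Sparcl1, a SPARC family matrix gene, went from 1349, 861 and 902 to 330, 450 and 409 (-1.34 ± 0.16). The counts of these lists stand beside 21.1% of all genes lower and 19.7% higher. The rises of the TGF-beta and BMP list and of the quiescence list were near that latter share.

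**Figure D4:**
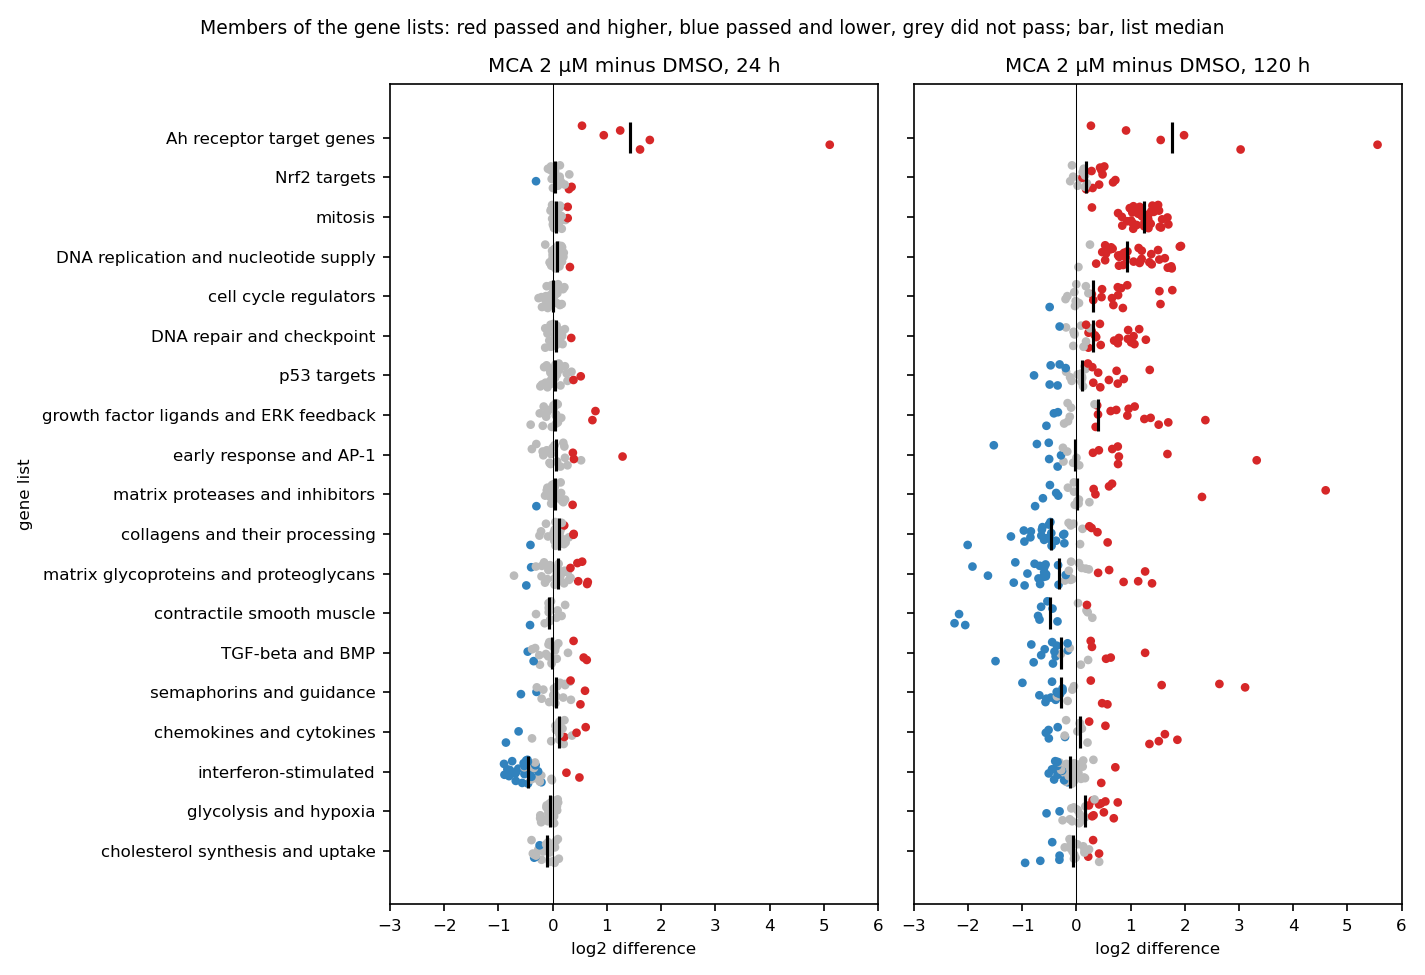
Each point is 1 gene of a list and its log2 difference between MCA and DMSO at 24 h (left) and 120 h (right), red where it passed and was higher, blue where it passed and was lower and grey where it did not pass, with a bar at the list median. The Ah receptor list is to the right of 0 at both times (medians 1.43 and 1.77), mitosis moves from 0.06 to 1.25, and the interferon-stimulated list has its falls at 24 h (median -0.46) rather than at 120 h (-0.11).

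Guidance molecules and cytokines split by member. Sema5a and Sema7a, membrane semaphorins, went from 70.3, 48.2 and 56.7 to 628, 509 and 692 (3.11 ± 0.28) and from 55.6, 54.2 and 55.3 to 331, 393 and 522 (2.64 ± 0.20). Sema6d rose by 1.57 ± 0.13. The guidance list as a whole had 12 falls and 6 rises in 22, among the falls Slit2 (-0.99 ± 0.10) and its receptor gene Robo1 (-0.68 ± 0.10). The chemokine genes Ccl8, Cx3cl1, Ccl7 and Ccl2 rose by 1.86 ± 0.15, 1.63 ± 0.09, 1.52 ± 0.15 and 1.35 ± 0.14, whereas Cxcl1 fell by 0.56. Cx3cl1, a membrane-bound chemokine, was at 431, 429 and 353 in DMSO and 1349, 1306 and 1267 with MCA. Over the 18 chemokines and cytokines tested, 6 rose and 5 fell. No leukocyte list moved with them, as 1 of the 6 leukocyte markers tested rose and 1 fell. These counts stand beside 19.7% of all genes higher and 21.1% lower, and the guidance rises and the cytokine falls were near those shares.

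Prostaglandin synthesis rose at several steps. Ptgs2, the inducible cyclooxygenase, went from 52.2, 50.8 and 59.7 to 378, 396 and 410 (2.61 ± 0.10, adjusted p = 1.58e-16). Pla2g4a, which frees arachidonic acid, and Ptges, which makes prostaglandin E2, rose by 0.92 ± 0.10 and 0.83 ± 0.07, while the prostacyclin synthase gene Ptgis and the prostaglandin E2 receptor gene Ptger4 each fell by 0.72. In this list of 9 genes 5 rose and 2 fell, against 19.7% and 21.1% of all genes, so the falls were near their share. The Ptgs2 promoter is printed because it holds the longer xenobiotic response element core TNGCGTG, in capitals 100 bases before the start, at chr1:150099781-150100030 (GRCm38.p6, plus strand).
Ptgs2: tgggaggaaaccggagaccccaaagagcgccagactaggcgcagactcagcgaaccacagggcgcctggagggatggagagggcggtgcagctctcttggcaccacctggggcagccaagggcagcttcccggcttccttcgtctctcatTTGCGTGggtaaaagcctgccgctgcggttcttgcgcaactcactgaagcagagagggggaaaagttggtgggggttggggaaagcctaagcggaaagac
This form, which contains GCGTG, was in 9.5% of the windows of all tested genes, in 6.91% of those that rose at least 2-fold, and in none of the 4 windows of the Ah receptor targets.

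Genes linked to p53, tumours and metabolism were mixed. Of 27 p53 targets 10 rose and 6 fell (median 0.11), the falls being near the 21.1% of all genes. The p53 target genes Ccng1, which went from 1244, 1420 and 1589 to 2467, 2334 and 2678 (0.76 ± 0.09), and Eda2r (0.88 ± 0.10) rose, and Gadd45a, a DNA damage and growth arrest gene, fell by 0.78. Cdkn1a, the p53-induced inhibitor of cyclin kinases, was at 857, 1040 and 1059 and then 1158, 1261 and 1347 (0.31 ± 0.09, adjusted p = 0.00596), and did not pass without control replicate 1, where the difference was 0.23. Mdm2, the ubiquitin ligase that restrains p53, did not pass, with a difference of 0.02 ± 0.05. Hmga2, a chromatin architecture gene of embryonic and tumour cells, went from 714, 1022 and 1092 to 3391, 3471 and 3920 (1.91 ± 0.17). The galectin gene Lgals3 rose by 1.10 ± 0.08. They belong to 10 tumour-linked and placental genes tested, of which 4 rose, 5 did not pass and 1 fell, the RNA-binding protein gene Igf2bp3 (-0.35 ± 0.06). Of 25 glycolysis and hypoxia genes 10 rose and 2 fell, led by pyruvate kinase Pkm (0.76 ± 0.06), against 19.7% and 21.1% of all genes. Of 24 cholesterol genes 3 rose (6 with the replicate block) and 5 fell, which is no more than those shares without the block. The sterol exporter gene Abca1 was lowest at -0.94 ± 0.11.

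The remaining large rises were in less connected genes. Dynap went from 7.9, 16.6 and 15.7 to 351, 361 and 419 (3.78 ± 0.26). Tafa5 (a secreted chemokine-like protein), Arhgap22, Cda (cytidine deaminase) and Gchfr (a regulator of GTP cyclohydrolase) rose by 2.73 ± 0.16, 2.63 ± 0.14, 2.56 ± 0.16 and 2.54 ± 0.11. The receptor genes Il18rap and Cd300lb rose by 2.56 ± 0.29 and 2.54 ± 0.11. Among the falls Pde6b, a phosphodiesterase known from the retina, had 5.96, 229 and 186 in DMSO and 0.338, 0.00672 and 5.03 with MCA. Control replicate 1 stood apart there: the difference was -2.53 ± 0.56 with it and -3.64 without it, and -1.90 without control replicate 2. AI662270, H3f3b, Rbms3, Myo7a and Ror1 differed by -1.78 ± 0.22, -1.70 ± 0.12, -1.37 ± 0.14, -1.36 ± 0.12 and -1.35 ± 0.13. The H3f3b value comes from 1 probe set of a histone gene with close copies and is uncertain.

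At 24 h the same dose moved fewer genes, with Cyp1a1 again first. There 139 genes were higher and 146 lower (1.16% and 1.22%), of which 8 changed at least 2-fold, all upward. Those 8 were Cyp1a1 (5.11), Cyp1b1 (1.79), Aldh3a1 (1.61), Chil1 (1.53), Ier3 (1.29), Tiparp (1.24), the heparan sulfate proteoglycan gene Gpc1 (1.20) and Ptgs2 (1.06). Cyp1a1 went from 39, 24 and 31.8 to 1642, 1801 and 1528. All 6 Ah receptor targets passed at both times. Of the genes that passed at 24 h, 156 passed in the same direction at 120 h, which is 54.7% of the calls at 24 h and 3.2% of those at 120 h, and 38 passed in the opposite one. The controls of the 24 h and 120 h comparisons are different arrays. The count at 24 h was 90 in a fit of all 60 arrays and 67 in a fit of the compared arrays alone.

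Interferon-stimulated genes fell mainly at 24 h. Of 36 tested 24 fell and 2 rose at 24 h (median -0.46), where 1.22% of all genes fell and 1.16% rose. At 120 h 11 fell and 2 rose (median -0.11), where 21.1% of all genes fell and 19.7% rose. Rsad2, the antiviral protein viperin, was at 1009, 721 and 734 in DMSO and 381, 325 and 608 with MCA at 24 h (-0.90, adjusted p = 0.000143). By 120 h it was at 294, 361 and 396 and at 258, 321 and 343, which overlapped (-0.18 ± 0.14, adjusted p = 0.324). Ifit3 had differences of -0.89 and -0.34, and the second did not pass without MCA replicate 3 or without control replicate 3. Ccl5, a chemokine that interferon signalling induces, differed by -0.86 at 24 h and by 0.21 ± 0.11 at 120 h (adjusted p = 0.155).

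The response at 120 h was tested against that at 24 h in the same fit. It was higher in 1859 genes and lower in 1700 (15.5% and 14.2%), and with median scaling 70.5% of the calls were higher, against 52.2% here. In a fit of all 60 arrays 1555 genes passed. Of the mitosis genes 38 of 39 had a higher response at 120 h and 0 a lower one, and 32 of 36 replication genes did. Collagens gave 21 lower and 1 higher in 29, contractile genes 9 lower and 0 higher in 14, and interferon-stimulated genes 17 higher and 1 lower in 36. For Mmp3 the arrays at 24 h read 37.4, 29.8 and 43.8 in DMSO and 35.6, 32 and 31.6 with MCA, which overlap, and the change of response was 4.71 ± 0.47 (adjusted p = 2.45e-08). Fosl1 was at 260, 191 and 219 and at 333, 363 and 296 at 24 h (0.52, adjusted p = 0.394), and its change of response was 2.80 ± 0.34. Among the Ah receptor targets Aldh3a1 and Nqo1 responded more at 120 h (by 1.42 and 1.04), Cyp1b1 and Tiparp less (by -0.24 and -0.33), and Cyp1a1 more by 0.45 (adjusted p = 0.0408), a small step beside 5.11. Mean intensities of Cyp1a1 at 24 h and 120 h were 1657 and 1424 with MCA and 31.6 and 15.2 in DMSO. Those of Nqo1 were 750 and 619 with MCA and 382 and 147 in DMSO. For these genes the control fell more than the treated level. Aldh3a1 was at 88.0 and 268 with MCA and at 18.5 and 20.5 in DMSO.

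**Figure D5:**
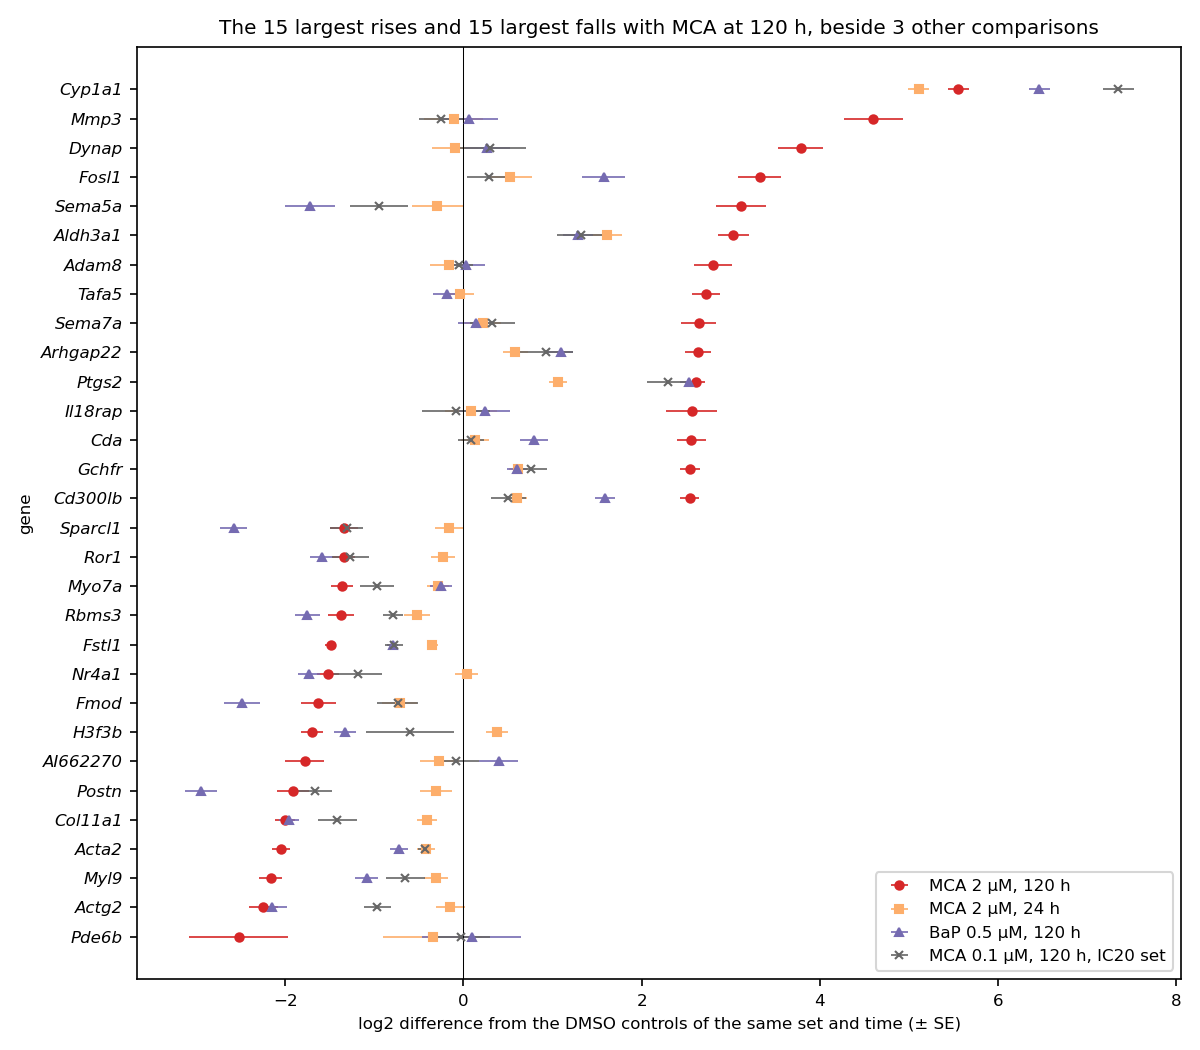
Log2 differences with SE from the DMSO controls of the same set and time are plotted for the 15 genes with the largest rises and the 15 with the largest falls at 120 h, with MCA 2 µM at 24 h, BaP 0.5 µM at 120 h (the same controls) and MCA 0.1 µM at 120 h in the IC20 set. Cyp1a1 is far to the right in all 4 (5.11 to 7.35), whereas Mmp3 is at 4.60 only with MCA 2 µM at 120 h and between -0.26 and 0.06 in the other 3.

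BaP is the other polycyclic aromatic hydrocarbon of the set, and MCA carries a methyl group that BaP lacks. It was given at 0.5 µM against 2 µM for MCA, so compound and concentration cannot be told apart. The actin ratio of 3' to 5' signal was 0.44 ± 0.06 (SD, n = 3) with BaP and 0.30 ± 0.03 with MCA at 120 h. The arrays did not overlap in it, and its part in the differences was not tested. At 120 h 2535 genes were higher with MCA than with BaP and 2664 lower (21.2% and 22.3%). The P450 genes were lower with MCA: Cyp1a1 was at 2368, 2800 and 2588 with BaP, above every MCA array, and the difference was -0.91 (adjusted p = 4.26e-07). Cyp1b1 and Tiparp differed by -0.72 and -0.55. Nqo1 and Aldh3a1 were higher with MCA, by 1.02 and 1.75. For Ptgs2 BaP gave 410, 367 and 378, the groups overlapped, and the difference of 0.08 (95% interval -0.13 to 0.29) did not pass.

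Sema5a, Mmp3 and Mmp13 had the 3 largest positive differences from BaP. Mmp3 was at 12.5, 10.2 and 15.9 with BaP, overlapping the DMSO arrays, and differed from MCA by 4.54 (adjusted p = 3.58e-11). Sema5a was at 11.6, 4.22 and 2.04 with BaP and differed by 4.83, and Mmp13 was at 54.5, 57.3 and 59.6, below its DMSO controls, and differed by 3.56. Jun was higher with MCA by 1.80 and Fosl1 by 1.75. Acta2 was at 3799, 3905 and 3844 with BaP, between DMSO and MCA. Lower with MCA were the chemokine gene Cxcl1 (-1.41), the surface glycoprotein gene Thy1 (-1.55) and the thrombomodulin gene Thbd (-1.34). Of the mitosis genes 29 of 39 were higher with MCA and 2 were lower, Top2a (-0.34) and Bub1b. The proliferation marker Mki67 differed by 0.01 and did not pass.

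The aromatic amine DAT and the amide AAF share the DMSO arrays with MCA, so their levels are given and not tested. With DAT at 50 µM Mmp3 was at 358 ± 51.8 (SD, n = 3), Mmp13 at 471 ± 83.6, Sema5a at 409 ± 87.4, Dynap at 166 ± 17.1 and Fosl1 at 303 ± 32.4. Each of these means lay below the 3 MCA arrays and above the 3 DMSO arrays. AAF at 25 µM gave Mmp3 at 120 ± 99.6, with arrays from 20 to 219. Cyp1a1 was at 428 ± 32 with DAT and 115 ± 27.1 with AAF. Acta2 was at 3196 ± 141 with DAT and 5350 ± 582 with AAF, both above the MCA arrays.

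In the IC20 set, with its own scaling and controls, MCA at 0.1 µM for 120 h raised 170 and lowered 145 of 11241 genes (1.51% and 1.29%), and 1313 passed once same-numbered arrays were fitted as a block. With median scaling 125 passed, and the median of all genes there was 0.10. Cyp1a1 rose there by 7.35, and all 6 Ah receptor targets passed upward, with a median of 1.44. Of the 39 mitosis genes 4 fell, namely Cdc20 (-0.90), Cenpe (-0.63), Pttg1 (-0.47) and Plk1 (-0.45), with a median of -0.25 and the highest value at 0.14, and the 36 replication genes had a median of -0.06. Mmp3, Fosl1, Sema7a and Adam8 had differences of -0.26, 0.29, 0.32 and -0.05, none of which passed. Several of the falls were shared: Postn (-1.67), Col11a1 (-1.42), Sparcl1 (-1.31), Ror1 (-1.27), Actg2 (-0.97), Fstl1 (-0.78) and Acta2 (-0.44) passed in the same direction as at 2 µM. Of the 15 largest falls at 2 µM 10 passed downward at 0.1 µM, and of the 14 largest rises that could be tested 4 passed upward (Cyp1a1, Aldh3a1, Ptgs2 and Gchfr). Over 10602 genes tested in both sets, 150 passed in the same direction, 47.9% of the calls at 0.1 µM and 3.14% of those at 2 µM, and 57 in opposite ones. Interferon-stimulated genes gave 23 falls and 2 rises in 36 (median -0.58). The difference between the doses itself was not tested, because the sets were normalised and fitted apart.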

How the data were processed

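Each of 60 RNA samples was measured on a single-colour mouse array. The deposited values are linear array intensities of 45101 probe sets, made by the authors with GCOS, per the submitters' processing notes, with the scaling target and background steps not given in the sources used here. Depth does not apply to arrays, so the number of arrays limits the precision.

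The log2 values were computed here as log2(intensity + 16) from the deposited intensities and quantile normalised within each set of 30 arrays. GEO's platform table gave 1 symbol to 34958 probe sets, several to 932 and none to 9211, and symbols were updated through RefSeq except 204. The brightest probe set stood for a gene, and genes above the array median on at least 3 arrays were tested. limma 3.58.1 in R 4.3.3 fitted 10 group means over 30 arrays (lmFit, eBayes with trend). Its two-sided p-values were adjusted by the Benjamini-Hochberg method across the genes tested, with a threshold of 0.05. The fit was tested on simulated data.

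Named were the 15 largest rises and falls whose groups did not overlap, up to 6 passing members of each gene list, a fixed set of marker genes, and the 8 largest rises and falls of the other comparisons. The members and lists were chosen with earlier results of these data known. Replicate numbers paired the arrays at 120 h: same-numbered arrays' deviations correlated at 0.528, 0.351 and 0.592 for MCA and DMSO, at 0.136, 0.298 and 0.28 for MCA and BaP, and at 0.475, 0.264 and 0.645 in the IC20 set. At 24 h they were 0.42, 0.482 and -0.189. Alternatives changed the normalisation, offset, filter, probe sets, arrays fitted, variance trend and block, and left out each replicate. Promoter windows run 250 bases before to 50 after the RefSeq start (GRCm38.p6) and matched 9656 of the 11957 genes tested. The methylcholanthrene arrays of the IC20 set at 24 h were not used here.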

Additional observations from a re-analysis of the deposited data

Results flagged for a closer look

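For the genes below, the response to MCA at 120 h differed from that at 24 h by the interaction term of the limma fit (adjusted p at or below 0.05). The values are the response at 120 h minus that at 24 h on the log2 scale. Most of these genes were picked by the size of their difference at 120 h, which is itself part of this term. That they passed is therefore no separate support. Over all genes the response was higher at 120 h in 15.5% and lower in 14.2%. No explanation was tested.

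Among the 15 largest rises the difference was 0.45 for Cyp1a1, 4.71 for Mmp3, 3.88 for Dynap, 2.80 for Fosl1 and 3.41 for Sema5a. Aldh3a1 had 1.42, Adam8 2.97, Tafa5 2.77, Sema7a 2.42 and Arhgap22 2.05. Ptgs2 had 1.55, Il18rap 2.48, Cda 2.43, Gchfr 1.93 and Cd300lb 1.93. Outside these 15 rises, the cadherin gene Cdh19 had 2.60.

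Among the 15 largest falls it was -2.18 for Pde6b, -2.10 for Actg2, -1.86 for Myl9, -1.63 for Acta2 and -1.59 for Col11a1. Postn had -1.61, AI662270 -1.51, H3f3b -2.08, Fmod -0.92 and Nr4a1 -1.56. Fstl1 had -1.14, Rbms3 -0.85, Myo7a -1.07, Ror1 -1.12 and Sparcl1 -1.18.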

How the results depend on the processing

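Of the 231 named genes tested at 120 h 219 passed, 176 passed under all alternatives run and 202 whenever 1 replicate was left out, and no direction of a called gene reversed. In a fit of all 60 arrays 35 named genes no longer passed, among them Cdkn1a, Xdh, Hmgcs1, Akr1c13 and Fads2. With the mean of a gene's probe sets 9 no longer passed, among them Apod and Inhba. The fit of all 60 arrays gave 2885 calls for MCA at 120 h, 90 at 24 h, 1555 for the change of response, 3123 against BaP and 725 at 0.1 µM. Fitting the compared arrays alone gave 67 at 24 h and 98 at 0.1 µM. Median scaling gave 155 at 24 h, 2305 for the change of response and 125 at 0.1 µM, and no normalisation gave 139 at 24 h and 2127 for the change of response. With the replicate number as a block there were 5865 calls at 120 h, 4717 for the change of response, 6169 against BaP and 1313 at 0.1 µM, and 635 at 24 h, where the numbers were not shown to pair the arrays. Among the named genes at 120 h the block added the calls of Igf1 and Mx1 and changed no other. Leaving out 1 replicate gave 4239 to 4439 calls at 120 h, 190 to 320 at 24 h, 2945 to 3533 for the change of response, 4418 to 4861 against BaP and 225 to 276 at 0.1 µM. The causes of these moves were not tested. Intensities near or under the offset of 16, such as those of Mmp3 and Cyp1a1 in DMSO, limit the size of a fold.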

Other observations

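The counts of other gene groups after 120 h with MCA stand beside 19.7% of all genes higher and 21.1% lower. Of 13 heat shock genes 6 rose and 2 fell: the chaperone genes Hsph1 and Hspa1b rose by 0.57 and 0.53, and the collagen chaperone gene Serpinh1 and the small heat shock gene Cryab fell by 0.48 and 0.49. Of 14 fatty acid synthesis genes 6 fell and 3 rose, with the desaturase genes Fads2 and Fads1 at -0.47 and -0.44. In the ER stress and Atf4 list of 30 genes, 10 rose and 6 fell, the falls being near the share of all genes, and Atf4 itself differed by 0.01 ± 0.06 and did not pass. The IGF axis split in 11 genes into 3 rises and 3 falls, from Igfbp6 at 1.17 to Igfbp7 at -0.98, both binding proteins of insulin-like growth factors.

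Agt, which codes angiotensinogen, was at 680, 439 and 361 in DMSO and 494, 486 and 424 with MCA, overlapping, and at 70, 73 and 49.9 with BaP. The difference between MCA and BaP at these unequal concentrations was 2.67.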
